A study of Danio rerio with 4 samples.

Results

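The genes described here are 10 zebrafish genes of pigment cell metabolism, *pnp4a*, *ltk*, *gch2*, *xdh*, *pts*, *paics*, *gart*, *atic*, *impdh1b* and *prps1a*. They were chosen by name as genes of iridophores and xanthophores, with earlier results of these data known. They are 10 of the 31388 genes in the table of whole embryos. The gene symbol given with the counts identified 9 of them, and *pts* (ENSDARG00000045269), which had no symbol there, was identified by its gene ID in a table of gene names. Poly(A) RNA of whole embryos at 2 dpf was sequenced from 2 control libraries, labelled WT, and 2 MZ*tulp3* libraries, each group as biological replicates 1 and 2. MZ*tulp3* embryos lack Tulp3, an adapter for the transport of membrane proteins into cilia, from both the maternal and the zygotic supply, through the CRISPR/Cas9-induced *tulp3* uf3/uf3 knockout on the AB/TL background. The fish line of this knockout is listed with the transgene *li1Tg*. Mutant embryos were picked for strong ventral curvature of the body, so genotype and this selection cannot be told apart, and the number of embryos per library is not given in the sources used here.

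Iridophores reflect light from stacked crystals of guanine, a purine, and xanthophores take their yellow colour in part from pteridines, which are made from GTP. Both therefore draw on de novo purine synthesis, which builds IMP step by step on activated ribose phosphate and turns it into GMP and AMP. GTP cyclohydrolase takes the first step from GTP to pteridines. Purine synthesis also serves dividing cells in general, and the same pterin route yields tetrahydrobiopterin, a cofactor of neurons that make monoamines. In RNA of whole embryos, fewer cells of a type and less RNA per cell cannot be told apart.

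Between 22589725 and 29735214 reads were counted on genes per library, of which 8607137 to 14520032 were nuclear and the rest fell on the 13 mitochondrial genes. The mitochondrial share was 57.9 and 41.0% in the control libraries against 52.6 and 71.1% in the MZ*tulp3* libraries, and its part in the results was not tested. The values are normalized counts, the reads of a library divided by its size factor, and fold changes are given on the scale of log2(normalized count + 2). The SD between replicates (n = 2), as a share of the mean, had a median of 21.9% (control) and 21.2% (MZ*tulp3*) over genes averaging 500 to 2000 normalized counts, and of 39.2 and 49.6% over genes averaging 100 to 200. Reads of *tulp3* itself numbered 36 in control replicate 2 and 0 in the other 3 libraries, so this gene could not check the labels.

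Of the chosen genes, 5 enzymes of de novo purine synthesis (*prps1a*, *gart*, *paics*, *atic*, *impdh1b*) and 2 of pteridine synthesis (*gch2*, *pts*) had higher values in both MZ*tulp3* than in both control libraries, though 0 of them passed the limma test, whereas the values of the iridophore gene *pnp4a* overlapped. A level of 10 normalized counts in at least 2 libraries was asked of a gene to be tested, which 8 of the 10 passed and *ltk* and *xdh* did not. Of those 8, both MZ*tulp3* libraries lay above both control libraries for these 7, and this was so for 20.0% of all 14674 genes tested. The reverse, seen for 23.3% of all genes, was seen for 0 of the 8. The median log2 fold change was 1.37 over the 8 genes and -0.09 over all genes tested, of which 47.2% lay higher and 52.8% lower. By limma with Benjamini-Hochberg adjustment, 0 of the 8 were past the threshold of 0.05 on the adjusted p, as were 0 of all genes (0%). At an unadjusted p under 0.05, 4 of the 8 were higher against 4.82% of all genes, and 0 were lower against 7.94%. DESeq2 on the recovered reads called 2 of them higher, *gch2* and *paics*, against 1.00% of all genes, and 0 lower against 1.60%. By edgeR, 0 were called. Since the genes were chosen with earlier results of these data known, these shares describe the genes and do not test them as a list.

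**Figure D1:**
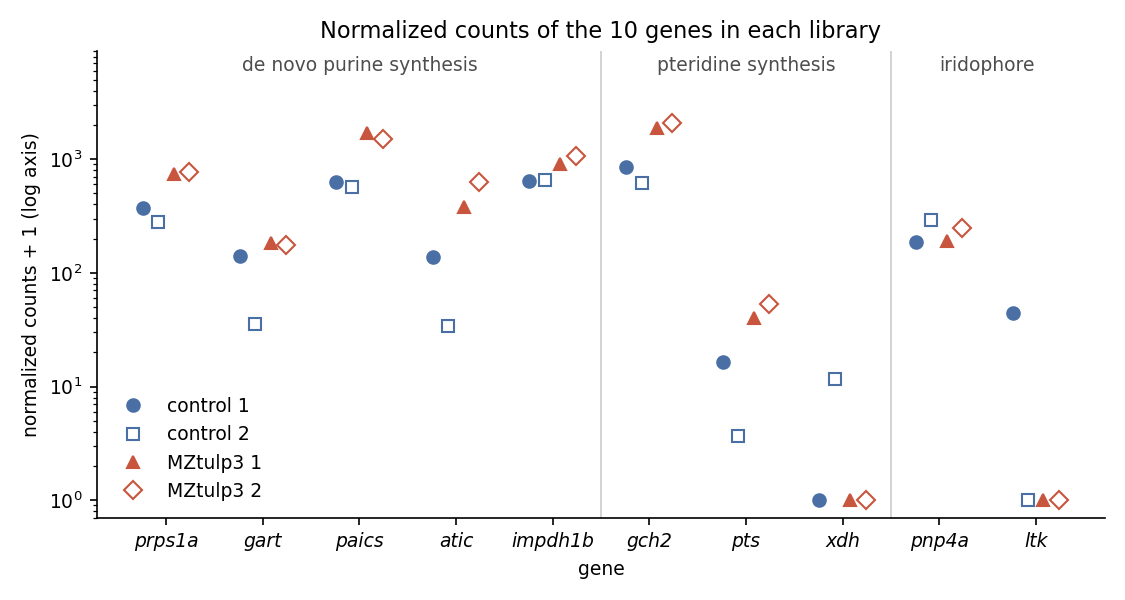
Normalized counts plus 1 (log axis) of each of the 10 genes in the 4 libraries, with control in blue and MZ*tulp3* in red. Red points lie above blue points for 7 genes, mix with them for *pnp4a*, and lie at 0 reads for *xdh* and *ltk*, which were each read in 1 control library.

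The route begins with phosphoribosyl pyrophosphate synthetase, which activates ribose phosphate. Its gene *prps1a* had 369 and 277 normalized counts in control (replicate 1, then 2, as in all values that follow) against 747 and 777 in MZ*tulp3* embryos. The groups did not overlap, and the MZ*tulp3* replicates lay close to each other (log2 fold change 1.25, standard error 0.39, limma adjusted p = 0.379, with a range of 0.209 to 0.526 over other tools, scalings, pseudocounts and filters). Its paralog *prps1b* had 396 and 177 normalized counts in control against 175 and 342 in MZ*tulp3* embryos, so its groups overlapped, with a log2 fold change of -0.11. Within a library, where no scaling enters, *prps1a* had 0.932 and 1.57 reads for each read of *prps1b* in the control replicates against 4.26 and 2.27 in the MZ*tulp3* replicates. The counting may have divided reads between such close copies.

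The gene *gart* encodes a protein that catalyses several early steps of the ring assembly. It had 140 and 34.3 normalized counts in control against 181 and 175 in the MZ*tulp3* replicates. The MZ*tulp3* libraries lay close together, while control replicate 1 lay near them and control replicate 2, with 52 reads, far below. The log2 fold change of 1.33 (standard error 0.98, limma adjusted p = 0.612) therefore rested on control replicate 2, and it was 0.34 without that library and 2.31 without control replicate 1.

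The enzyme encoded by *paics* takes the following steps of the ring assembly. Normalized counts of *paics* were 632 and 574 in control against 1714 and 1516 in MZ*tulp3* embryos, or 603 ± 41.5 and 1615 ± 140 (SD, n = 2 each). Both MZ*tulp3* libraries lay far above both control libraries, at a difference beyond the spread between replicates. The log2 fold change was 1.42 (95% interval 0.70 to 2.13, limma adjusted p = 0.379, with a range of 0.0481, in DESeq2, to 0.483 over other tools, scalings, pseudocounts and filters). The DESeq2 call was lost, at an adjusted p of 0.0507, when that tool's filtering of low genes was tuned to 0.1 in place of 0.05, an alternative chosen after the values were seen.

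The last steps to IMP are catalysed by the product of *atic*, which showed the largest fold among the 8 genes tested. It had 137 and 33.0 normalized counts in control against 378 and 633 in MZ*tulp3* embryos. The lower MZ*tulp3* library was above the higher control library, although the replicates of both groups lay apart (log2 fold change 2.82, standard error 0.83, limma adjusted p = 0.379, with a range of 0.0740 to 0.494 over other tools, scalings, pseudocounts and filters). Without control replicate 1 the log2 fold change was 3.81, and without control replicate 2 it was 1.82. Counted against *gart* within a library, *atic* had 0.979 and 0.962 reads per read of *gart* in the control replicates against 2.09 and 3.62 in the MZ*tulp3* replicates. Both genes were low in control replicate 2, and their ratio was alike in the control replicates.

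IMP dehydrogenase turns IMP towards GMP, the branch that leads to guanine and GTP. Its gene *impdh1b* had 637 and 655 normalized counts in control against 905 and 1059 in MZ*tulp3* embryos. The difference was the smallest of the 7 genes with separated groups, at a log2 fold change of 0.60 (95% interval -0.16 to 1.36, limma adjusted p = 0.489). The control replicates were nearly equal, at 646 ± 12.5 (SD, n = 2) against 982 ± 109 in MZ*tulp3* embryos. Of its paralogs, *impdh2* had 380 and 119 normalized counts in control against 218 and 477 in MZ*tulp3* embryos, and *impdh1a* was at 0.963 and 32.4 in control against 60.7 and 0 in MZ*tulp3* embryos. The groups overlapped for both paralogs.

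Among 16 other enzymes of the purine route and the folate enzymes that feed it, all of which were tested, 11 lay above and 5 below control, at a median log2 fold change of 0.20. Neither limma nor DESeq2 called any (0 of 16), and the unadjusted p was under 0.05 for 3, of which 2 were higher and 1 lower. Over all genes tested, 4.82% were higher and 7.94% lower at that unadjusted p. Both MZ*tulp3* libraries lay above both control libraries for 3 of the 16 and below for 1, with overlap for the rest, beside the shares of 20.0 and 23.3% over all genes. The 2 with the smallest p were *mthfd1l*, a mitochondrial folate enzyme, and *prpsap2*, which encodes a protein associated with phosphoribosyl pyrophosphate synthetase. Normalized counts of *mthfd1l* were 211 and 97.7 in control against 357 and 786 in MZ*tulp3* embryos (log2 fold change 1.87), and those of *prpsap2* were 382 and 542 in control against 235 and 88.5 in MZ*tulp3* embryos (log2 fold change -1.64).
The enzymes between the steps of *gart*, *paics* and *atic* were looked up after the values were seen. Normalized counts of *pfas*, which acts between steps of *gart*, were 28.9 and 48.9 in control against 134 and 420 in MZ*tulp3* embryos, without overlap. Those of *adsl*, between *paics* and *atic*, were 500 and 359 in control against 744 and 432 in MZ*tulp3* embryos, with overlap. For *ppat*, the enzyme of the first committed step, they were 57.8 and 196 in control against 101 and 161 in MZ*tulp3* embryos, again with overlap. The log2 fold changes of *adsl* (0.42) and *ppat* (0.25) were above 0. The groups were thus not separated at every step of the route.

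**Figure D2:**
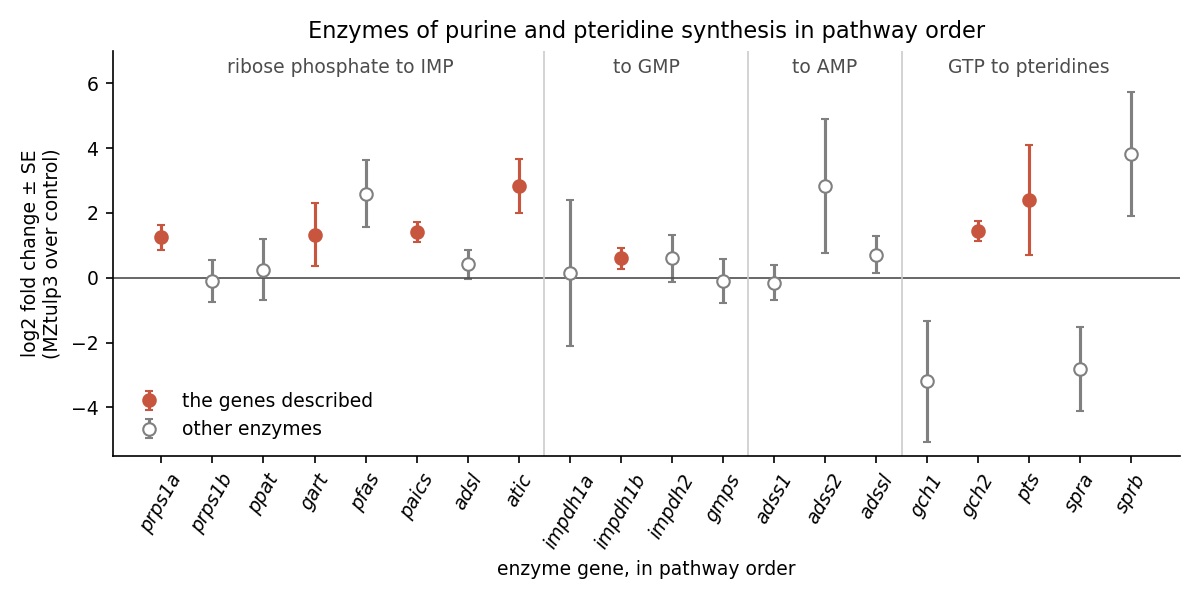
Log2 fold change of MZ*tulp3* over control, with its standard error, for enzymes of purine and pteridine synthesis in pathway order, with the genes described here in red and other enzymes in grey. The red points lie above 0, *impdh1b* nearest to it at 0.60, and the grey points lie on both sides of 0. Of the genes described here, *pnp4a* (log2 fold change -0.10), *ltk* and *xdh* are not drawn. Fitted values of genes with 0 reads in a library, such as *adss2*, depend on the pseudocount of 2.

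GTP cyclohydrolase 2, encoded by *gch2*, opens the pteridine branch and is used as a marker of xanthophores and early pigment precursors in zebrafish. Normalized counts of *gch2* were 847 and 622 in control against 1894 and 2086 in MZ*tulp3* embryos, or 735 ± 159 and 1990 ± 136 (SD, n = 2 each). Both MZ*tulp3* libraries stood far above both control libraries. The log2 fold change was 1.45 (95% interval 0.72 to 2.18, limma adjusted p = 0.379, with a range of 0.0347, in DESeq2, to 0.483 over other tools, scalings, pseudocounts and filters). It lay between 1.23 and 1.67 with each library left out. The paralog *gch1*, which serves tetrahydrobiopterin synthesis, lay lower in few reads, with 28.9 and 92.4 normalized counts in control against 0 and 15.3 in MZ*tulp3* embryos.

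The next enzyme, 6-pyruvoyltetrahydropterin synthase, is encoded by *pts*. It had 16 and 4 reads in the control replicates against 34 and 44 in the MZ*tulp3* replicates, or 15.4 and 2.64 against 38.9 and 51.9 normalized counts. The groups did not overlap, but the counts were too low for a narrow estimate (log2 fold change 2.39, 95% interval -1.63 to 6.40, limma adjusted p = 0.599), and without control replicate 2 the log2 fold change was 1.43. The gene *xdh* encodes xanthine dehydrogenase, which oxidizes purines and also acts on pteridines. It was read 16 times in control replicate 2 and 0 times in the other 3 libraries. Its level was not detectable there, where 0 reads allow up to 2.89, 3.44 and 3.54 normalized counts in control replicate 1 and MZ*tulp3* replicates 1 and 2, a limit that covers counting error only.

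Of 11 other genes of pteridine and tetrahydrobiopterin synthesis, all tested, 4 lay above and 7 below control, and the groups overlapped for 7. Their summed normalized counts were 1361 and 1672 in control against 1277 and 1688 in MZ*tulp3* embryos, with overlap. The median log2 fold change was -1.34 by limma, also with the 1 gene at 0 in a whole group set at its bound, and -0.20 by DESeq2. Neither limma nor DESeq2 called any (0 of 11), and the unadjusted p was under 0.05 for 1, which was lower, beside 7.94% of all genes. Both MZ*tulp3* libraries lay above both control libraries for 1 of the 11 and below for 3, beside 20.0 and 23.3% of all genes. The genes with the smallest p were *aox6*, an aldehyde oxidase, and *spra*, a sepiapterin reductase that completes tetrahydrobiopterin. The first had 32.7 and 30.4 normalized counts in control but no reads in either MZ*tulp3* library. Its control mean was 9.05-fold above a floor of 3 reads per library, a bound that covers counting error only. The upper end of limma's interval for its log2 fold change was -0.51 (limma adjusted p = 0.379), and it passed the filter through its control libraries alone. The second had 195 and 102 normalized counts in control against 24.0 and 14.2 in MZ*tulp3* embryos. The other sepiapterin reductase gene, *sprb*, named after its values were seen, had 0 and 39.0 normalized counts in control against 105 and 150 in MZ*tulp3* embryos, so the 2 paralogs lay on opposite sides. As a list, the pterin genes thus did not lie higher along with *gch2*.

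Purine nucleoside phosphorylase 4a, encoded by *pnp4a*, is an enzyme of purine salvage and a common marker of zebrafish iridophores. It had 187 and 291 normalized counts in control against 190 and 249 in MZ*tulp3* embryos, 239 ± 73.8 and 220 ± 41.7 (SD, n = 2 each). The groups overlapped fully. The log2 fold change was -0.10, with a 95% interval from -1.46 to 1.26 (limma adjusted p = 0.971), and its direction turned when control replicate 2 (0.22) or MZ*tulp3* replicate 1 (0.09) was left out. The receptor tyrosine kinase encoded by *ltk* directs cells of the neural crest to the iridophore fate. It was read 45 times in control replicate 1 and 0 times in control replicate 2 and both MZ*tulp3* libraries, so its value rests on 1 library and no fold is given. Such patterns were common at this level, since 36.4% of the 4021 genes averaging 5 to 25 normalized counts were read in 1 library alone, as *ltk* was, and 84.9% of the 1439 genes averaging 1 to 5, as *xdh* was. Among genes averaging 100 to 200 it was 1 of 2707.

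Of 22 other genes of purine salvage and breakdown, 13 were tested, 5 lay above and 8 below control, at a median log2 fold change of -0.35 by limma, also with the 1 gene at 0 in a whole group set at its bound, and of 0.06 by DESeq2, on the other side of 0. Neither limma nor DESeq2 called any (0 of 13). The unadjusted p was under 0.05 for 1 that was higher and 1 that was lower, beside 4.82 and 7.94% of all genes. Both MZ*tulp3* libraries lay above both control libraries for 3 of the 13 and below for 3, beside 20.0 and 23.3% of all genes. The 2 genes with an unadjusted p under 0.05 were purine nucleoside phosphorylase genes. Normalized counts of *pnp5a* were 301 and 212 in control against 578 and 810 in MZ*tulp3* embryos. Its log2 fold change was 1.43 (limma adjusted p = 0.379). The gene *pnp6* had 52.9 and 50.2 in control but no reads in either MZ*tulp3* library. Its control mean was 14.8-fold above the floor of 3 reads, a bound that covers counting error only. The upper end of limma's interval for *pnp6* was a log2 fold change of -1.05 (limma adjusted p = 0.379). This gene passed the filter through its control libraries alone. The paralog *pnp5b* had 16.4 and 7.26 in control against 43.5 and 44.9 in MZ*tulp3* embryos (log2 fold change 1.82), and *pnp4b* was read in control replicate 2 alone, with 29.1 normalized counts. Of the 5 *pnp* genes, *pnp5a* and *pnp5b* thus lay above control and *pnp6* below it, *pnp4a* overlapped and *pnp4b* was too rarely read to compare.

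**Figure D3:**
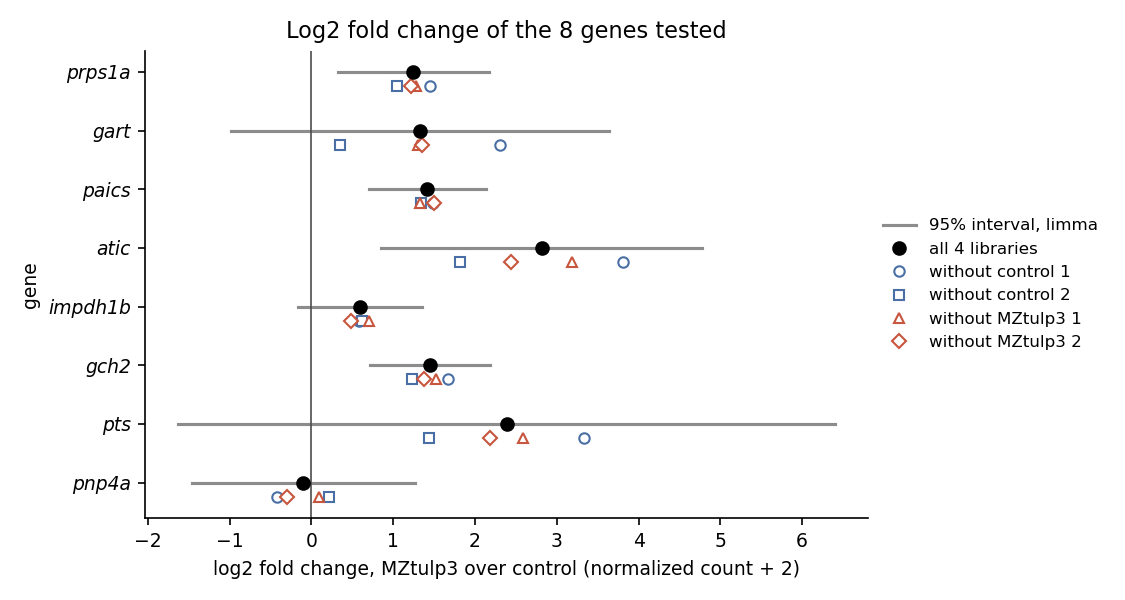
Log2 fold change of MZ*tulp3* over control for the 8 genes tested (black, with limma's 95% interval in grey) and the value with each library left out (open symbols). The intervals of *gch2*, *paics*, *atic* and *prps1a* lie above 0, *gart* moves from 0.34 to 2.31 with the control library left out, and *pnp4a* lies on both sides of 0.

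Ratios of reads within a library do not depend on the scaling between libraries, and the pairs were chosen after the values were seen. For each read of *pnp4a*, *gch2* had 4.54 and 2.14 reads in the control replicates against 9.96 and 8.37 in the MZ*tulp3* replicates. The ratio of *paics* to *pnp4a* was 3.39 and 1.97 in control against 9.02 and 6.09 in MZ*tulp3* embryos. Both ratios were higher in both MZ*tulp3* libraries. The ratio of *gch2* to *paics* was 1.34 and 1.08 in control against 1.10 and 1.38 in MZ*tulp3* embryos, with overlap between the groups.

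Genes that mark the cells in question, outside purine and pteridine synthesis, had lower median log2 fold changes than the 1.37 of the 8 genes tested. Of 13 xanthophore markers, 11 were tested, of which 10 lay above and 1 below control, at a median log2 fold change of 0.47 by limma and 0.76 by DESeq2. Their summed normalized counts were 1224 and 1173 in control against 1881 and 1775 in MZ*tulp3* embryos, without overlap. The part of these markers in the level of *gch2* was not tested. Both MZ*tulp3* libraries lay above both control libraries for 3 of the 11 and below for 0, beside 20.0 and 23.3% of all genes, and 47.2% of all genes lay higher. For 0 of the 11 was the unadjusted p under 0.05, and limma and DESeq2 called 0. The paired-box gene *pax7a*, a xanthophore regulator, had 39.5 and 22.4 normalized counts in control against 133 and 109 in MZ*tulp3* embryos (log2 fold change 1.94, limma adjusted p = 0.545), and the scavenger receptor gene *scarb1*, needed for carotenoid uptake, had 0 and 36.3 in control against 116 and 47.2 in MZ*tulp3* embryos. The defining receptor gene *csf1ra*, named after its values were seen, was read in 1 library of each group, with 70.3 normalized counts in control replicate 1 and 137 in MZ*tulp3* replicate 2. Part of the list was thus not readable in every library.

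Of 12 iridophore markers tested of 16 listed, 6 lay above and 6 below control, at a median log2 fold change of 0.03 by limma and 0.53 by DESeq2. Summed normalized counts of the list were 2614 and 2145 in control against 3601 and 2420 in MZ*tulp3* embryos, with overlap. Most of each sum came from the gene *tjp1a*, named after its values were seen. It had 1477.7 and 1184.5 in control against 2010.6 and 1397.5 in MZ*tulp3* embryos. The endothelin receptor gene *ednrba* had 41.4 and 16.5 normalized counts in control but no reads in either MZ*tulp3* library. Its control mean was 8.30-fold above the floor of 3 reads, a bound that covers counting error only. The upper end of limma's interval for *ednrba* was a log2 fold change of -0.23 (limma adjusted p = 0.382). This gene passed the filter through its control libraries alone. A melanosomal glycoprotein gene that iridophores also express, *gpnmb*, had 1.93 and 80.5 in control against 41.2 and 186 in MZ*tulp3* embryos. Named after their values were seen, the transcription factor gene *tfec* had 24.1 and 19.1 in control against 30.9 and 51.9 in MZ*tulp3* embryos and the ligand gene *alkal1* had 0 reads in every library. The unadjusted p was under 0.05 for *ednrba* alone, which was lower, beside 7.94% of all genes, and limma and DESeq2 called 0. Both MZ*tulp3* libraries lay above both control libraries for 2 of the 12 and below for 2, beside 20.0 and 23.3% of all genes.

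Melanophores and the progenitors that all pigment cells share were compared in the same way. Of 13 melanophore genes tested, 4 were higher and 9 lower (median log2 fold change -0.33 by limma and -0.04 by DESeq2). Their sums of 3311 and 2776 in control against 3671 and 2010 in MZ*tulp3* embryos overlapped. The 2 with the smallest p, *pmelb* and *trpm1a*, lay lower. The melanosome matrix gene *pmelb* had 296 and 500 normalized counts in control against 120 and 61.4 in MZ*tulp3* embryos. The channel gene *trpm1a* had 81.8 and 40.9 in control but no reads in either MZ*tulp3* library. Its control mean was 17.6-fold above the floor of 3 reads, a bound that covers counting error only. The upper end of limma's interval for *trpm1a* was a log2 fold change of -1.14 (limma adjusted p = 0.379). This gene passed the filter through its control libraries alone. Of 12 neural crest and progenitor genes tested, 7 were higher and 5 lower (median log2 fold change 0.15), with sums of 4324 and 4566 in control against 6114 and 4898 in MZ*tulp3* embryos, which did not overlap and whose part in the levels of *gch2* was not tested. The transcription factor genes *sox9b* and *zeb2a* had the smallest p there, with *sox9b* at 485 and 281 normalized counts in control against 956 and 838 in MZ*tulp3* embryos (log2 fold change 1.27) and *zeb2a* at 561 and 360.5 in control against 837 and 1186 in MZ*tulp3* embryos (log2 fold change 1.14). In both lists limma and DESeq2 called 0 genes. At an unadjusted p under 0.05 there were 2 melanophore genes, both lower, and 3 progenitor genes higher and 1 lower. Over all genes 4.82% were higher and 7.94% lower. Both MZ*tulp3* libraries lay above both control libraries for 3 melanophore and 5 progenitor genes, beside 20.0% of all genes. They lay below for 3 melanophore and 2 progenitor genes, beside 23.3%.

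Other cells of the embryo also use these enzymes. Of 14 genes of dividing cells, all tested, 12 lay above and 2 below control, beside 47.2% of all genes higher. Their median log2 fold change was 0.45. Both MZ*tulp3* libraries lay above both control libraries for 8 of the 14 and below for 0, beside 20.0 and 23.3% of all genes. The summed normalized counts of the list were 10243 and 9757 in control against 11977 and 14511 in MZ*tulp3* embryos. These sums were higher in both MZ*tulp3* libraries, as for the purine enzymes, and their part in that result was not tested. Reads of *paics* per read of the whole list were 0.0617 and 0.0588 in the control replicates against 0.143 and 0.104 in the MZ*tulp3* replicates. Set against each of the 14 genes in turn, *paics* had higher ratios in both MZ*tulp3* libraries for 12, while the groups overlapped for *top2a* and *tyms*, the thymidylate synthase gene. These ratios were chosen after the values were seen, with *paics* known to lie higher (log2 fold change 1.42). The other purine enzymes were not set against this list, so the ratios do not test the part of dividing cells. The ratio to *rrm2* in MZ*tulp3* replicate 2 rests on 1 read. The cyclin gene *ccnb1*, with 472 and 475 normalized counts in control against 846 and 994 in MZ*tulp3* embryos (log2 fold change 0.95), and the topoisomerase gene *top2a*, with 572 and 430 in control against 711 and 1139 in MZ*tulp3* embryos (log2 fold change 0.86), had the smallest p.
Of 15 photoreceptor and retinal pigment epithelium genes, 7 were tested and all 7 had fold changes below 0, beside 52.8% of all genes, but the groups overlapped for 5 of them (median log2 fold change -0.93 by limma and -1.98 by DESeq2). The other 2, *rho* and *rlbp1b*, lay lower in both MZ*tulp3* than in both control libraries, beside 23.3% of all genes. Normalized counts of *rlbp1b* were 83.8 and 219 in control against 35.5 and 0 in MZ*tulp3* embryos. Those of *rho* were 15.4 and 44.2 in control, with no reads in either MZ*tulp3* library. The control mean of *rho* was 8.55-fold above the floor of 3 reads, a bound that covers counting error only. The upper end of limma's interval for *rho* was a log2 fold change of -0.21 (limma adjusted p = 0.383). This gene passed the filter through its control libraries alone. Summed normalized counts of this list were 768 and 1580 in control against 958 and 368 in MZ*tulp3* embryos. Most of each sum came from the gene *crx*, named after its values were seen. It had 529 and 985 in control against 728 and 317.5 in MZ*tulp3* embryos. The genes *pde6b* and *rbp3*, named after their values were seen, had 0 reads in every library. Of 11 genes of monoamine neurons, 3 were tested, 1 higher and 2 lower. Their sums were 190 and 236 in control against 132 and 184 in MZ*tulp3* embryos, with *th* at 0 and 46.2 in control against 87.0 and 79.1 in MZ*tulp3* embryos and *dbh* at 56.8 and 17.8 in control against 0 and 9.44 in MZ*tulp3* embryos. In these 3 lists limma and DESeq2 called 0 genes. The unadjusted p was under 0.05 for *ccnb1*, which was higher, and *rho*, which was lower, beside 4.82 and 7.94% of all genes.

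**Figure D4:**
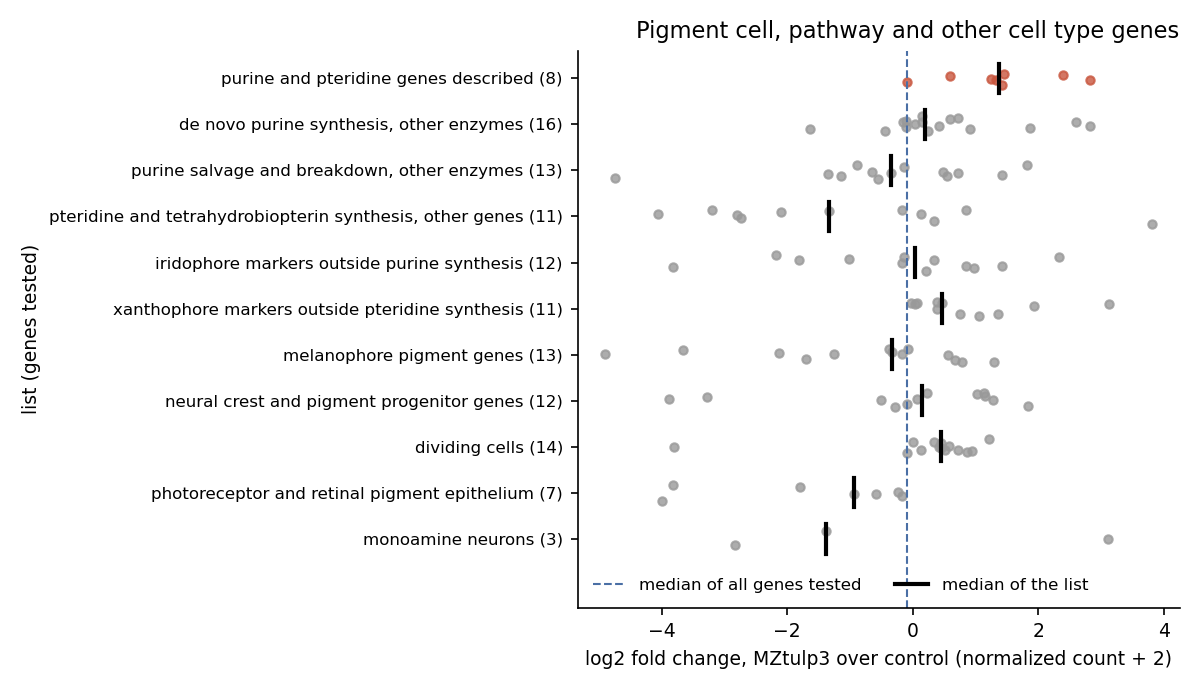
Log2 fold change of MZ*tulp3* over control for each gene tested (points), by list, with the list's median (black bar) and the median of all genes tested (dashed line, -0.09). By limma, the purine and pteridine genes described here have a median of 1.37. The limma medians of the other lists lie between -1.39 and 0.47, also with genes at 0 reads in a whole group set at their bound. By DESeq2, not drawn, they lie between -1.98 and 0.76. Points of genes with 0 reads in a group depend on the pseudocount of 2.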

How the data were processed

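Reads of 4 libraries were trimmed with Trim Galore, aligned to GRCz10 with STAR and quantified with RSEM by the authors, who then applied DESeq2. The deposited signal values are named counts but are counts divided by 1 size factor per library, since 100% of them are whole multiples of 1 constant (tolerance 0.001). Deposited columns of rLog values (4) and of the authors' own comparison (fold change, standard error, p-values) were not used. The annotation release is not given in the sources used here.

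The fit across genes was limma with trended variance, on log2(normalized count + 2), for genes with at least 10 normalized counts in at least 2 libraries, with Benjamini-Hochberg adjustment over 14674 genes and a threshold of 0.05. With 2 libraries a group, the smallest two-sided p of an exact permutation test is 0.333. P-values set the difference between groups against the spread between these libraries, which limma estimates in part across genes. DESeq2 and edgeR on recovered reads, other scalings, filters and pseudocounts, a term for the replicate number and leaving out each library were alternatives. The versions were DESeq2 1.42.0, edgeR 4.0.16, limma 3.58.1 and R 4.3.3. The tests were also run on simulated counts, with the spread of each gene past the filter estimated from these libraries. Genes below the filter were given the largest of these spreads. DESeq2 made more false calls there than limma or edgeR, but it alone was run without the filter. The simulation therefore does not compare the tools on equal terms. For the calls made here DESeq2 was also run without the filter, so its false calls in the simulation are a caution for them. How many of those false calls fell on genes past the filter was not counted. A library left alone in its group was assumed to vary like the other group.

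The 10 genes and the 10 lists of other genes were chosen with earlier results of these data known. Names came from the table's symbols, else from gene IDs (25925 of 31388 matched in a name table) or RefSeq synonyms, and 145 listed genes were found. Named were the 10 genes, their close paralogs and, per list, genes past the threshold and the 2 with the smallest p, and further genes are marked in the text as picked with their values known. Promoter and protein sequences were not analysed here, and no coordinates are given since the annotation used for synonyms (GRCz12tu) is of another build.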

Additional observations from a re-analysis of the deposited data

How the results depend on the processing

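Over all settings run, the direction of 7 of the 8 genes tested stayed the same, and that of *pnp4a* turned when control replicate 2 (0.22) or MZ*tulp3* replicate 1 (0.09) was left out, in a range from -0.42 to 0.22. The median log2 fold change of the 8 genes lay between 1.16 (scaling by nuclear reads) and 1.38 (pseudocount 0.5), and between 1.13 and 1.58 with 1 library left out. Scaling by nuclear reads moved the median of all genes by -0.20. Of 119 values of the 8 genes under other settings, 8 came past the threshold, all of them higher in MZ*tulp3* embryos. Where limma called 0 of all genes and 0 of the 8, DESeq2 called 355 and 2, DESeq2 with its filtering tuned to 0.1 called 326 and 1, and at least 10 normalized counts in every library gave 112 and 0. Leaving out 1 library gave 18 to 347 genes, 0 to 2 of the 8 (*gch2* and *atic*, without control replicate 1) and 0 to 2 of the listed genes (*rrm2* and *foxd3*, named for these calls, without MZ*tulp3* replicate 1). Both listed genes were lower, with 1 read of *rrm2* and 0 of *foxd3* in MZ*tulp3* replicate 2. With the replicate number as a block, 329 genes, 3 of the 8 (*gch2*, *paics* and *atic*) and 1 listed gene (*rrm2*) were called. The labels tie no numbers across groups, and the deviations of same-numbered libraries correlated at -0.00286 across genes. Depth limits *pts*, *xdh* and *ltk*, with at most 45 reads in any library, and the precision of every gene is limited by 2 libraries per group. Single libraries without reads occurred at higher levels too. The gene *foxd3* had 224 and 268 reads in the control replicates against 179 and 0 in the MZ*tulp3* replicates. Such genes were not set at a bound in the list medians.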
